A study of Mus musculus with 6 samples.

Results

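The 54 genes described here carry out DNA synthesis in dividing cells: they license and fire replication origins, build the replication fork, supply deoxynucleotides and repair DNA at damaged forks. They were chosen by name, with earlier results of these data known. All 54 were found among the 55536 named rows of the count table, of which 25538 had a count in any library. RNA was sequenced from C57BL/6 mice aged 8 weeks, with 1 library in each of 6 groups. BM was uncultured bone marrow. M-BMDM and GM-BMDM were macrophages that marrow cells formed over 7 days with M-CSF, the growth factor of the monocyte and macrophage lineage, or with GM-CSF, which also supports granulocytes and dendritic cells. Interleukin-6 (IL6), an inflammatory cytokine that signals through STAT3, was given to M-BMDM for 3 h or 24 h and to GM-BMDM for 3 h. The labels give neither the dose of IL6 nor the number of mice or cultures, and they name no sort, so each library is a mixture of the cells that marrow or culture held.

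Replication is prepared in G1, when the origin recognition complex with Cdc6 and Cdt1 loads the Mcm helicase onto DNA, and it is carried out in S phase, when Cdc45 and GINS turn that helicase on and the polymerases copy both strands. Most of these genes are transcribed in a wave at the boundary of G1 and S under E2F transcription factors. In marrow, red cell, granulocyte and B cell precursors divide rapidly. M-CSF and GM-CSF also drive macrophage precursors to divide, and division slows as the cells mature.

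The start regions of these genes are shown first, since the members varied together across the libraries. RefSeq promoters (GRCm38.p6, 250 bases before to 50 bases after the start) were found for 43 of the 54 genes. They were searched on both strands for an E2F-type motif in a short form (the letters TTCCCGC, the letters TTCGCGC, the letters TTGCCGC or the letters TTGGCGC) and in a long form with 1 more T in front (TTTCCCGC, TTTCGCGC, TTTGCCGC or TTTGGCGC), so each long match holds a short one. The 250 bases before the start are printed 5′ to 3′ on the strand of the gene, with short and long matches in capitals, for 4 members with a match and for 1 member without one. They are Pola1, the catalytic subunit of the polymerase that starts each new strand (chrX:93632156-93632405, minus strand), Chaf1a (chr17:56040166-56040415, plus strand) and Chaf1b (chr16:93883651-93883900, plus strand), the partners of the assembly factor that puts histones on new DNA, Rrm1, the large subunit of ribonucleotide reductase (chr7:102441445-102441694, plus strand), and Tyms, thymidylate synthase, without a match (chr5:30073626-30073875, minus strand). These windows hold no exon of the GENCODE M21 annotation.
Pola1: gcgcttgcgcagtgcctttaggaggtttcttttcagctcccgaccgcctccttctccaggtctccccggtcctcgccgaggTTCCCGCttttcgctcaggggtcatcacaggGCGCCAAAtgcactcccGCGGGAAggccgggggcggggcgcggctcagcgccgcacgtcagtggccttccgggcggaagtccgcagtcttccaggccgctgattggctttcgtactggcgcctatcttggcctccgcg
Chaf1a: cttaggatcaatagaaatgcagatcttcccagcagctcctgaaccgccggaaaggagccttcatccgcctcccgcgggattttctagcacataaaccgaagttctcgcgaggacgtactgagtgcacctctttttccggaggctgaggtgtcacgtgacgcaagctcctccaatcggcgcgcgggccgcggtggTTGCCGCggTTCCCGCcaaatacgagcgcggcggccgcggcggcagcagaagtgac
Chaf1b: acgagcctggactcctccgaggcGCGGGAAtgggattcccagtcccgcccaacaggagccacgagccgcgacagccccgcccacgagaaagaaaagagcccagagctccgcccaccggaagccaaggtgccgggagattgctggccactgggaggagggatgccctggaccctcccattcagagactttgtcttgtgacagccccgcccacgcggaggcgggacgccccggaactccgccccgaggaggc
Rrm1: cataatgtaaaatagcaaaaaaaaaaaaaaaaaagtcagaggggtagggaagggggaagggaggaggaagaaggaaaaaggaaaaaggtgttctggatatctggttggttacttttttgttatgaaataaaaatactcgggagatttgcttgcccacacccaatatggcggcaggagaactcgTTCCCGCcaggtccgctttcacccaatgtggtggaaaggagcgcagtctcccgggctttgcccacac
Tyms: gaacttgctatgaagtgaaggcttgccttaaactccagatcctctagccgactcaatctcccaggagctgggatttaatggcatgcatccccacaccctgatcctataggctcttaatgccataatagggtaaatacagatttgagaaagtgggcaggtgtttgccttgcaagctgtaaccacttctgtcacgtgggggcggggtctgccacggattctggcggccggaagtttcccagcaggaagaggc

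In Pola1 the matches began 169, 138 and 121 bases before the start, and the one at 138 was of the long form. Chaf1a held a pair of matches, at 56 and 47 bases. Chaf1b had 1 at 227 bases and Rrm1 1 at 67 bases. Over the whole 300 bases, 31 of the 43 members with a promoter entry held the short form (72.1%), against 10.9% of 27025 genes in the table and 22.1% of the genes whose promoter had a GC content of at least 60%. The median GC content was 63.0% in members and 53.3% in all genes. The long form was found in 14 members (32.6%), in 2.60% of all genes and in 4.9% of those with a GC content of at least 60%. The CHR element TTTGAA, which is known from genes of G2 and mitosis, was found in 5 members (11.6%), in 20.2% of all genes and in 9.32% of those with a GC content of at least 60%. It stood in 23 of 30 genes of a mitosis list (76.7%, or 40.0% before the start), of which 23.3% held the short E2F-type form. CCAAT, the letters bound by NF-Y, stood in 23 members (53.5%) and in 41.1% of all genes. These are matches of letters in a window, and many lay after the start. Before the start, 17 of the 43 members (39.5%) held the short form. It stood there in 9.01% of all genes and in 18.8% of those with a GC content of at least 60%. For the long form these shares were 16.3%, 2.16% and 4.09%.

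**Figure D1:**
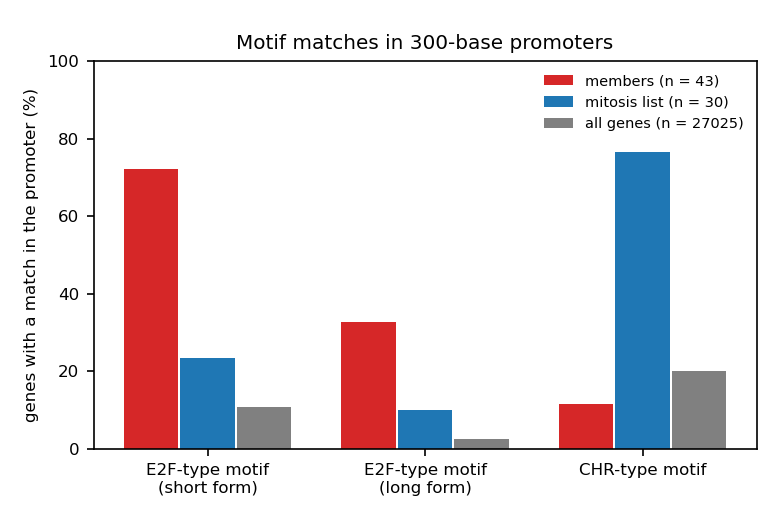
Share of genes (percent, vertical axis) whose 300-base promoter held each motif on either strand, for the 43 members with a promoter, 30 mitosis genes and all 27025 genes. The short E2F-type form was found in 72.1% of members and 10.9% of all genes, while the CHR element was found in 76.7% of the mitosis genes and 11.6% of members.

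Levels are given as scaled CPM, the rate of a gene's counts among all counts of its library after scaling by the trimmed mean of M-values. The libraries held 18511777 to 24134374 counts in named genes, and the smallest count of any member in any library was 8. With 1 library per group, the ratios below have no replicate check, and their 95% intervals (exact Clopper-Pearson) cover counting error only. Macrophage markers such as Csf1r and Adgre1 were present in all cultures: 12 of them summed to 1570 CPM in BM and 10500 to 14200 in the 5 cultures. Single macrophage markers differed between the culture types, as given below. Erythroid markers (12 genes) summed to 81000 CPM in BM and at most 11 in any culture, precursor neutrophil markers (7) to 3160 and at most 4.88, and B lineage markers (10) to 1880 and at most 14.2.

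The 54 genes were high and low in the same libraries. In all 54, the BM level and the level after 24 h of IL6 both lay above each of the other 4 levels. The highest of the 6 levels was in BM for 23 genes and in M-BMDM after 24 h for 31. The lowest was in M-BMDM without IL6 or at 3 h for 49 genes, and in a GM-BMDM library for 5. How many of all genes showed these patterns was not counted, so these counts have no background. The median member had 58.3 CPM in BM, 7.12 in M-BMDM, 7.62 after 3 h, 53.3 after 24 h, 12.3 in GM-BMDM and 13.1 in GM-BMDM after 3 h. Summed, the members made up 0.493% of the counts in BM, 0.0984% in M-BMDM, 0.542% after 24 h of IL6 and 0.114% in GM-BMDM.

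**Figure D2:**
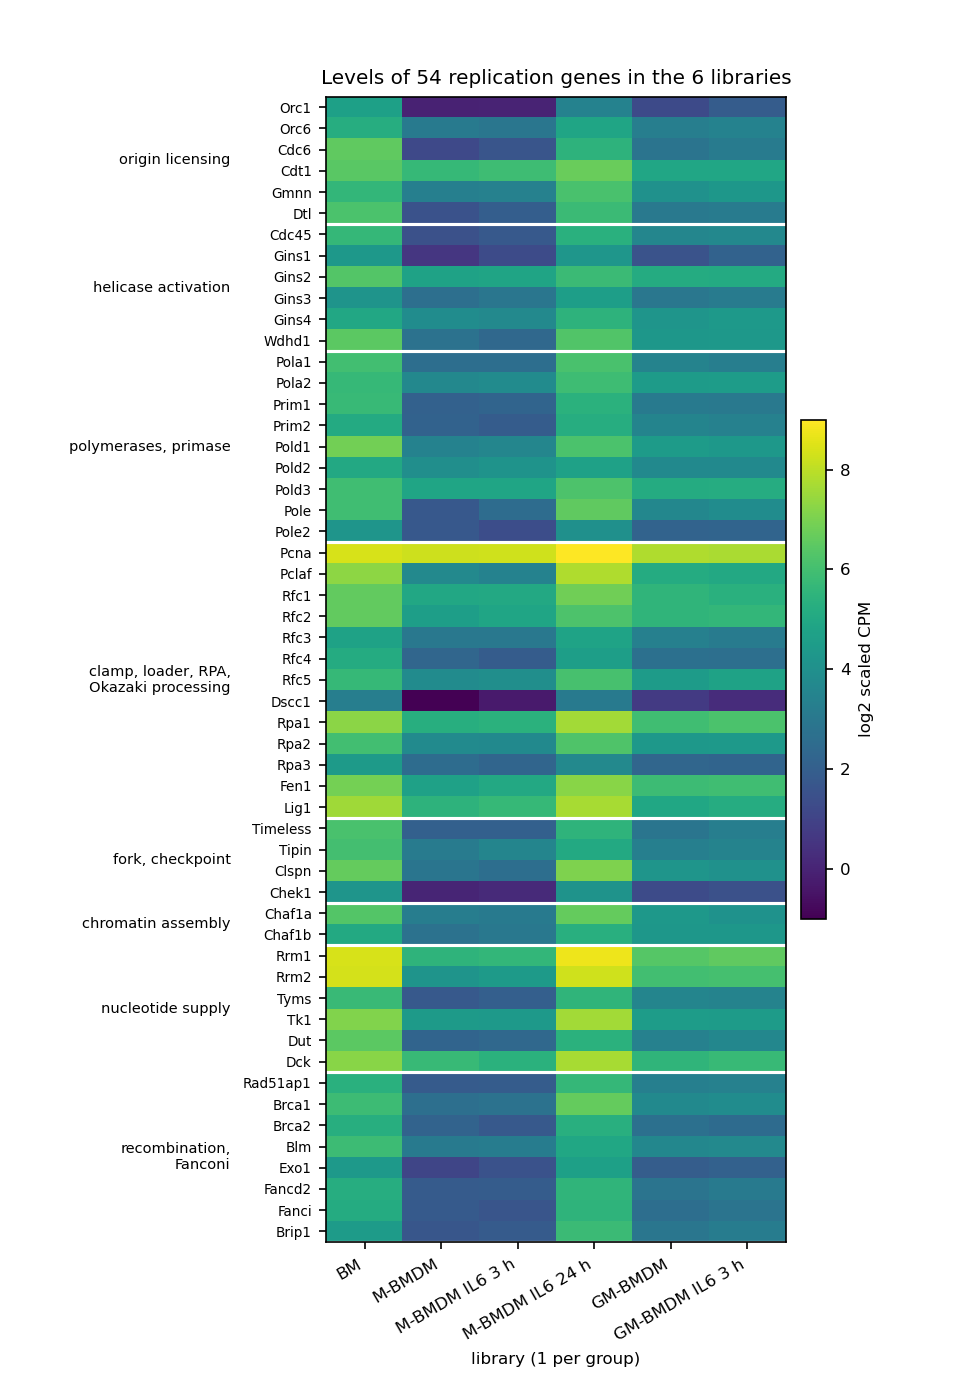
Level of each of the 54 genes (rows, grouped by role) in the 6 libraries (columns), as log2 scaled CPM by colour. Levels are not divided by gene length, so colours are to be read along a row; in every row the BM and 24 h columns are the brightest.

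Among the origin licensing genes (Orc1, Orc6, Cdc6, Cdt1, Gmnn, Dtl), Cdc6, the loader that helps place the helicase, varied most. Cdc6 had 94.1 CPM in BM, 2.31 in M-BMDM, 3.11 after 3 h of IL6, 44.2 after 24 h, 7.27 in GM-BMDM and 9 in GM-BMDM after 3 h. It was high in marrow, intermediate at 24 h and low in the other 4 libraries. Orc1, the origin subunit made anew in each cycle, had 25.6 CPM in BM, 0.968 in M-BMDM, 1.01 after 3 h, 10.8 after 24 h, 2.39 in GM-BMDM and 3.79 after 3 h. Dtl, the ubiquitin ligase adaptor that marks Cdt1 for destruction in S phase, had 72.3, 2.85, 3.94, 56.9, 8.15 and 9 CPM in the same order. Cdt1 itself, whose protein is controlled mainly by degradation, varied least of the group: it had 86.1 CPM in BM, 52.6 in M-BMDM, 59.5 after 3 h, 105 after 24 h, 30.2 in GM-BMDM and 30 after 3 h. Cdt1 was lowest in the GM-BMDM libraries, unlike the other licensing genes, which were lowest in M-BMDM libraries. Gmnn, the inhibitor of Cdt1, had its highest level, 69.5 CPM, at 24 h.

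Of the helicase activation genes (Cdc45, Gins1 to Gins4, Wdhd1), Cdc45, which activates the helicase, had 50.6 CPM in BM, 2.80 in M-BMDM, 3.43 after 3 h, 40.5 after 24 h, 12.2 in GM-BMDM and 12.6 after 3 h. Wdhd1, which ties the helicase to the primase polymerase, had 90.2, 6.77, 5.22, 78.5, 19.7 and 20.2 CPM in that order. In both genes the GM-BMDM libraries lay between the 2 low M-BMDM libraries and the 2 high libraries. Gins3 and Gins4 were highest at 24 h, with 24.3 and 44.5 CPM.

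The polymerase and primase genes (Pola1, Pola2, Prim1, Prim2, Pold1, Pold2, Pold3, Pole, Pole2) held the member with the largest ratio at 24 h. Pole, the catalytic subunit of the leading strand polymerase, had 61.8 CPM in BM, 3.33 in M-BMDM, 5.77 after 3 h, 94.3 after 24 h, 12.3 in GM-BMDM and 14.7 after 3 h. Its level at 24 h was the highest of the 6. Prim1 and Prim2 form the primase that makes RNA primers. Prim1 had 53.5, 4.30, 4.62, 42.2, 8.47 and 8.23 CPM and Prim2 34.2, 4.46, 3.75, 37.6, 11.3 and 10.4 CPM in the same order of libraries. Pold2 and Pold3, accessory subunits of the lagging strand polymerase, had the smallest fold range here, from 13.3 to 33.2 CPM and from 29.6 to 73.4 CPM.

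The sliding clamp, its loaders, the single-strand binding protein and the enzymes that join Okazaki fragments (Pcna, Pclaf, Rfc1 to Rfc5, Dscc1, Rpa1 to Rpa3, Fen1, Lig1) differed among themselves. Pcna, the clamp, had 337 CPM in BM, 306 in M-BMDM, 310 after 3 h, 650 after 24 h, 222 in GM-BMDM and 215 after 3 h. Per kb of length, Pcna had the highest level of the 54 genes in each library, from 141 CPM per kb in GM-BMDM after 3 h to 428 at 24 h. Its small binding partner Pclaf varied far more than Pcna: it had 156 CPM in BM, 13.2 in M-BMDM, 10.7 after 3 h, 225 after 24 h, 35.1 in GM-BMDM and 32.9 after 3 h. Dscc1, part of an alternative clamp loader used in cohesion, had 9.72, 0.430, 0.824, 8.39, 1.61 and 1.21 CPM, which in M-BMDM was only 8 counts. Fen1, the nuclease that trims Okazaki flaps, had 119 CPM in BM, 26.7 in M-BMDM, 32.4 after 3 h, 150 after 24 h, 58.2 in GM-BMDM and 61.4 after 3 h. Lig1, the ligase that seals the same fragments, had 189, 44.4, 52.2, 206, 30.7 and 36.9 CPM. Fen1 was thus higher in GM-BMDM than in M-BMDM, and Lig1 was lower.

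In the fork protection and checkpoint group (Timeless, Tipin, Clspn, Chek1), Timeless, which with Tipin steadies the fork, had 69.5 CPM in BM, 4.14 in M-BMDM, 4.21 after 3 h, 45.9 after 24 h, 7.41 in GM-BMDM and 9.65 after 3 h. Clspn, the adaptor for the checkpoint kinase, had 100 CPM in BM, 7.42 in M-BMDM, 6.09 after 3 h, 135 after 24 h, 18.6 in GM-BMDM and 16.6 after 3 h. Chek1, the kinase, had 18.5, 1.02, 1.14, 17.8, 2.44 and 2.80 CPM in that order. At 24 h Timeless lay below its marrow level (log2 ratio -0.60) and Clspn above it (0.44), and for Chek1 the counting interval held 1 (-0.25 to 0.14).

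Chaf1a, the large subunit of the histone deposition factor, had 79.8 CPM in BM, 9.46 in M-BMDM, 8.56 after 3 h, 100 after 24 h, 20.2 in GM-BMDM and 17.0 after 3 h. Chaf1b, its partner, had 34.1, 6.83, 8.10, 39.6, 19.7 and 19.7 CPM. Both were highest at 24 h.

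Nucleotide supply was represented by Rrm1, Rrm2, Tyms, Tk1, Dut and Dck. Rrm2, the small subunit of ribonucleotide reductase, which is made in S phase and sets the rate of deoxynucleotide synthesis, had 330 CPM in BM, 18 in M-BMDM, 21.8 after 3 h, 309 after 24 h, 62.4 in GM-BMDM and 67.0 after 3 h. Tyms, which makes thymidylate, had 55.5, 3.44, 4.03, 47.1, 11.6 and 11.2 CPM. Dut, which removes dUTP and so keeps uracil out of DNA, had 90.5 CPM in BM, 4.73 in M-BMDM, 5.17 after 3 h, 41.9 after 24 h, 10.6 in GM-BMDM and 12.5 after 3 h. Dut was the member of this group farthest below its marrow level at 24 h. The salvage kinases differed little among the 4 low libraries: Dck had 42.0 to 53.6 CPM in the 4 low libraries and 207 at 24 h, and Tk1 21.5 to 23.2 and 195.

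In the recombination and Fanconi anaemia group (Rad51ap1, Brca1, Brca2, Blm, Exo1, Fancd2, Fanci, Brip1), Rad51ap1, which stimulates strand exchange, had 41.1 CPM in BM, 3.66 in M-BMDM, 3.75 after 3 h, 50.2 after 24 h, 9.85 in GM-BMDM and 10.4 after 3 h. Fancd2, one of the pair that is ubiquitinated at crosslinks, had 37.7, 3.66, 3.75, 47.1, 7.27 and 8.39 CPM. Brip1, a helicase partner of Brca1, had 22.7 CPM in BM, 3.17 in M-BMDM, 3.66 after 3 h, 56.5 after 24 h, 7.59 in GM-BMDM and 9.16 after 3 h. In these 3 genes the 24 h level was the highest of the 6, by the widest margin in Brip1. Blm, also a helicase, was instead highest in marrow, with 58.5 CPM in BM and 30.9 at 24 h.

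Macrophages grown with M-CSF had far fewer of these transcripts than uncultured marrow. To be counted as different, a gene needed a ratio of 2-fold or more with an interval that left out 1, and 5 scaled CPM or more in one of both libraries. In M-BMDM against BM, 52 of the 54 members were counted lower and 0 higher, with a median log2 ratio of -2.87. Of all 11226 genes that reached 5 CPM, 22.6% were counted lower and 20.6% higher, and their median log2 ratio was 0.05. Cdc6 was 40.7-fold lower (log2 -5.35, interval -5.82 to -4.91), Orc1 26.4-fold (-4.72, -5.49 to -4.05) and Dtl 25.4-fold (-4.66, -5.09 to -4.27). Dscc1 (-4.50), Dut (-4.26), Pole (-4.21), Rrm2 (-4.20), Cdc45 (-4.18) and Chek1 (-4.18) followed. The 2 members not counted were Cdt1 (-0.71, -0.82 to -0.60) and Pcna (-0.14, -0.19 to -0.09). By role, the median was lowest in fork protection (-3.91), licensing (-3.48) and nucleotide supply (-3.45), and least low in the clamp and Okazaki group (-2.0).

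The culture with GM-CSF showed the same direction with smaller ratios to marrow. In GM-BMDM against BM, 50 of 54 members were counted lower and 0 higher, with a median of -2.12 and a range from -3.69 (Cdc6) to -0.60 (Pcna). Over all 11352 genes, 21.9% were lower and 20.2% higher, with a median of -0.02. Orc1 (-3.42), Timeless (-3.23), Dtl (-3.15) and Dut (-3.10) were among the lowest, and Gins4 (-0.80), Pold3 (-0.82), Chaf1b (-0.79) and Pcna were not counted. Both comparisons use the same BM library. BM also held the erythroid, granulocyte and B lineage markers given above, and fewer dividing cells and less of these RNAs per cell cannot be told apart in such bulk samples. Scaled by total counts, the GM-BMDM median was -2.47, since this scaling moves the median of all genes by -0.35 in that pair and by -0.19 in the M-BMDM pair.

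After 24 h with IL6, M-BMDM had all but a few of these transcripts within 2-fold of their marrow level. Against M-BMDM without IL6, 52 of 54 members were counted higher and 0 lower, and the median log2 ratio was 3.11. Of 10313 genes tested, 11.5% were higher and 8.93% lower, with a median of 0.02, and 46 members lay at or above the 95th percentile of all tested genes, 24 of them at or above the 99th. Pole was 28.3-fold higher (log2 4.82, interval 4.46 to 5.21), Dtl 20.0-fold (4.32, 3.92 to 4.74), Dscc1 19.5-fold (4.29, 3.28 to 5.52) and Cdc6 19.1-fold (4.26, 3.82 to 4.73). Clspn (4.19, 3.94 to 4.45), Brip1 (4.15, 3.78 to 4.56), Chek1 (4.12, 3.46 to 4.87), Rrm2 (4.10, 3.94 to 4.26) and Pclaf (4.09, 3.91 to 4.29) came next. The members not counted were Cdt1, just under 2-fold (1.00, 0.89 to 1.11), and Pold2 (0.80, 0.60 to 1.01). Pcna (1.09) and Gins2 (1.07) were little above 2-fold.

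All 8 roles were higher at 24 h. Role medians were 3.80 in fork protection, 3.68 in recombination and Fanconi genes, 3.21 in nucleotide supply, 3.14 in licensing, 2.97 in chromatin assembly, 2.74 in helicase activation, 2.72 in polymerases and primase, and 2.26 in the clamp and Okazaki group. Members with the short E2F-type form had a median of 3.26 (31 genes, from 1.00 to 4.32) and members without it 2.30 (12 genes, from 0.80 to 3.86), which overlapped widely. For the long form the order was the reverse, with 2.94 in 14 members that held it and 3.15 in 29 that did not. With the 3 h library as the reference instead, 51 members were counted higher and 0 lower (median 3.00), against 11.5% higher and 8.83% lower of 10275 genes. No M-BMDM library kept for the same 24 h without IL6 was analysed here, so IL6 and time in culture cannot be told apart, and this comparison rests on 1 library.

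Other genes of the cell cycle, from lists chosen by function, differed in the same comparison. Of 38 further replication genes, 24 were counted higher and 0 lower (median 1.65), led by Mcm7, a subunit of the helicase (4.26), Uhrf1, which carries DNA methylation through replication (4.08), Chtf18 (4.04) and Mcm10 (3.92). Of 35 mitosis genes, 34 were higher (median 2.45), led by the kinase Aurkb (3.74). Among further repair genes, 30 of 55 tested were higher and 0 lower (median 1.19), with the uracil glycosylase Ung at 4.12. In the list of E2F, Rb and MuvB factors, 14 of 19 were higher and 0 lower, with E2f8 (4.32), Mybl2 (4.27) and E2f7 (3.97) at the top. E2f1, the activator best known for driving S phase genes, had 40.9 CPM in BM, 15.9 in M-BMDM, 16.4 after 3 h, 62.2 after 24 h, 27.0 in GM-BMDM and 26.9 after 3 h. Mki67, a marker of cells in cycle, had 1350, 126, 112, 860, 157 and 122 CPM in that order. The 2 genes thus ran like the members, high in BM and at 24 h. Further nucleotide genes differed less: 9 of 37 tested were higher and 3 lower, with a median of 0.15. Among them Samhd1, which degrades deoxynucleotides, had 361, 169, 164, 246, 226 and 230 CPM.

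**Figure D3:**
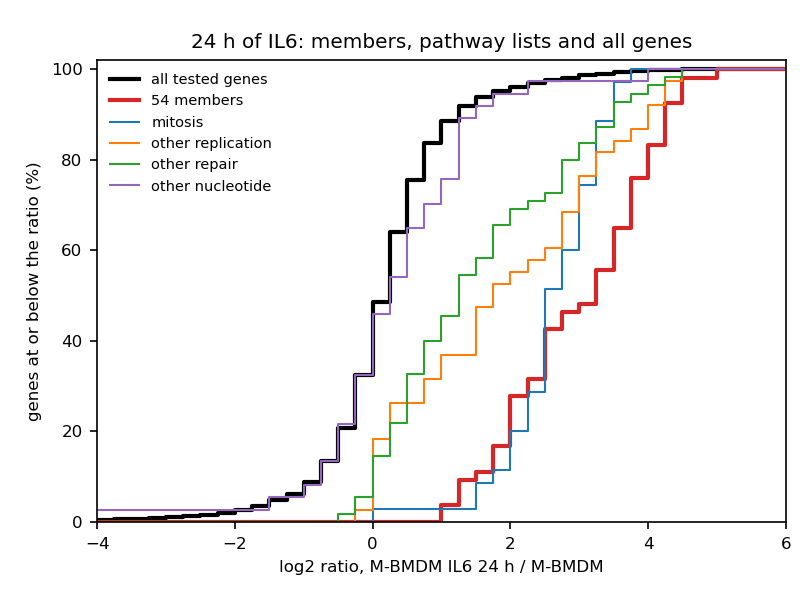
Cumulative share of genes (percent, vertical axis, in steps of the ratio) by log2 ratio of M-BMDM after 24 h of IL6 against M-BMDM, for all 10313 tested genes, the 54 members and 4 pathway lists. The curve of the members lies to the right of all tested genes, whose median was 0.02 against 3.11 in members, and the further nucleotide genes (median 0.15) lie near all genes.

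Markers of red cell, granulocyte and B lineage cells were low at 24 h, as in M-BMDM without IL6, while dendritic and megakaryocyte markers were lower than there. Erythroid markers summed to 9.39 CPM (11 in M-BMDM, with 4 and 3 of 12 genes at 0), precursor neutrophil markers to 1.29 (0.591, with 4 of 7 at 0 in each library) and B lineage markers to 7.48 (13 in M-BMDM, with 6 and 5 of 10 at 0). Progenitor markers (8 genes) summed to 41.2 CPM at 24 h, 19.7 in M-BMDM and 340 in BM. Within them Cd34 had 31.3 CPM at 24 h and 6.72 in M-BMDM, while Kit had 4.98 and 4.89. Dendritic markers (9 genes) summed to 63.1 CPM at 24 h, 237 in M-BMDM and 304 in BM, with H2-Aa, a class II antigen presentation gene, at 47.8, 209 and 176. Megakaryocyte markers (7) summed to 30.5, 48.3 and 605 CPM, with Ppbp, a platelet chemokine, at 0.249, 9.19 and 256. The 12 macrophage markers summed to 10500 CPM at 24 h and 12800 in M-BMDM. Of them, 1 was counted higher and 1 lower at 24 h than in M-BMDM. Their log2 ratios ran from -1.51 to 2.65, with 8 below 0 and 4 above. The part of progenitor, dendritic or other cells in the 24 h levels was not tested.

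Set against marrow itself, the 24 h levels scattered around equality. This comparison was added after the other values were seen. Of the 54 members, 1 was counted higher and 3 lower at 24 h than in BM, with a median log2 ratio of 0.15, against 17.8% higher and 17.4% lower of 11161 genes and a median of 0.08. Counting intervals excluded 1 for 48 members, 28 of them higher and 20 lower, and held 1 for 6. How many of all genes had such intervals was not counted, so these interval counts have no background. Brip1 was 2.49-fold higher (1.31, 1.17 to 1.46). Orc1 (-1.24, -1.45 to -1.03), Dut (-1.11, -1.22 to -1.0) and Cdc6 (-1.09, -1.20 to -0.99) were lower. By role, licensing (median -0.35) and fork protection (-0.33) lay below marrow, and recombination and Fanconi genes (0.32), chromatin assembly (0.27) and the clamp group (0.22) above it. Pcna (0.95) and Brca1 (0.77) were among the higher members, and Blm (-0.92) among the lower ones. The BM library served as the reference for all 3 comparisons with marrow, so their ratios are not independent.

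**Figure D4:**
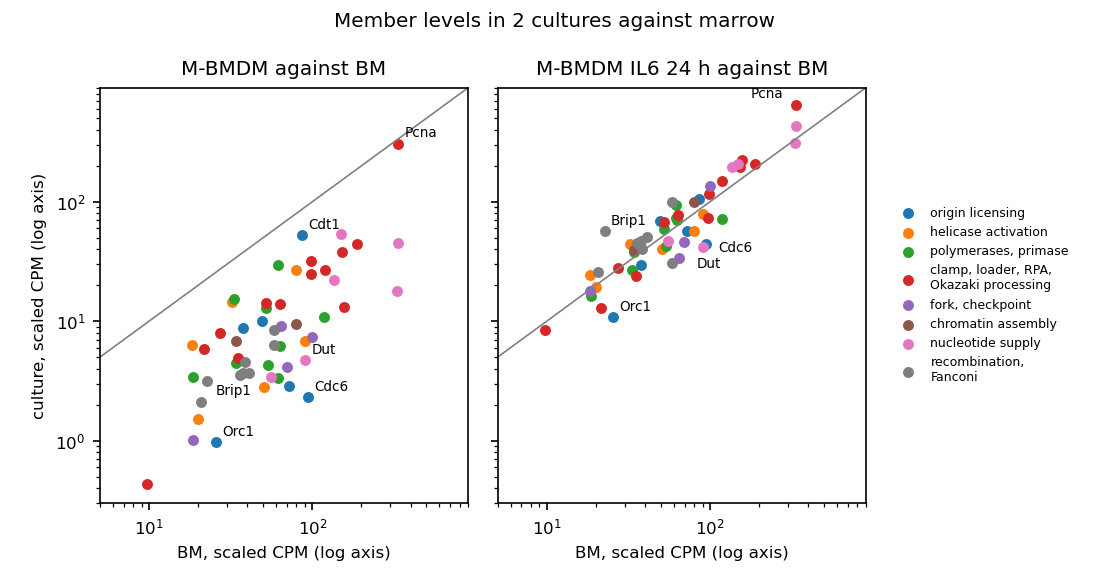
Level of each member in M-BMDM (left) and in M-BMDM after 24 h of IL6 (right) against its level in BM, in scaled CPM on log axes, with roles by colour and a line of equality. On the left all 54 points lie below the line, and Pcna is closest to it; on the right 31 points lie above it and 23 below.

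The 2 growth factors gave different levels of these genes without IL6. In GM-BMDM against M-BMDM, 18 of 48 members with at least 5 CPM were counted higher and 0 lower, and the median over all 54 was 0.87. Of 10495 genes tested, 10.8% were higher and 8.65% lower, with a median of -0.03. The second pair of libraries, both after 3 h of IL6, gave 18 of 47 higher and 0 lower, with a median over all 54 of 0.82, against 10.5% and 8.16% of 10452 genes. In both pairs 47 members were higher in GM-BMDM, 5 were lower in both (Cdt1, Lig1, Pcna, Pold2, Rpa3), and 2 had opposite signs (Dck, Tipin). Of those counted, 15 were counted in both pairs. Agreement between the pairs was not counted over all genes, so these numbers have no background.

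The 4 libraries were also fitted together with edgeR's quasi-likelihood test, with macrophage type and IL6 for 3 h as terms and Benjamini-Hochberg adjustment over 13023 genes at 0.05. In this test 42 members rose in GM-BMDM, 4 fell and 8 were not called, with a median log2 difference of 0.86 against -0.01 over all genes. Over all genes, 31.1% rose and 31.3% fell. Scaled by total counts, which moves the median of all genes by -0.16 in the pair without IL6, 36 members rose and 4 fell. Cdc45 rose most, by 1.99 (standard error 0.193, adjusted p = 1.51e-14). Wdhd1 rose by 1.74 (0.145, adjusted p = 2.37e-17), Rrm2 by 1.70 (0.0981, adjusted p = 4.75e-25), Tyms by 1.61 (0.191, adjusted p = 2.45e-11), Pole by 1.59 (0.175, adjusted p = 1.87e-12) and Pclaf by 1.52 (0.116, adjusted p = 6.57e-19). All 8 recombination and Fanconi genes, both chromatin assembly genes and 8 of 9 polymerase genes rose. The members that fell were Cdt1 (-0.89, standard error 0.0946, adjusted p = 4.63e-13), Lig1 (-0.52, 0.0942, adjusted p = 2.34e-06), Pcna (-0.50, 0.0834, adjusted p = 4.17e-07) and Pold2 (-0.31, 0.128, adjusted p = 0.0308). The salvage kinases Tk1 (0.08, adjusted p = 0.575) and Dck (0.07, adjusted p = 0.557) were not called, nor were Tipin, Gins3, Orc6, Rfc3, Rpa3 and Dscc1.

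**Figure D5:**
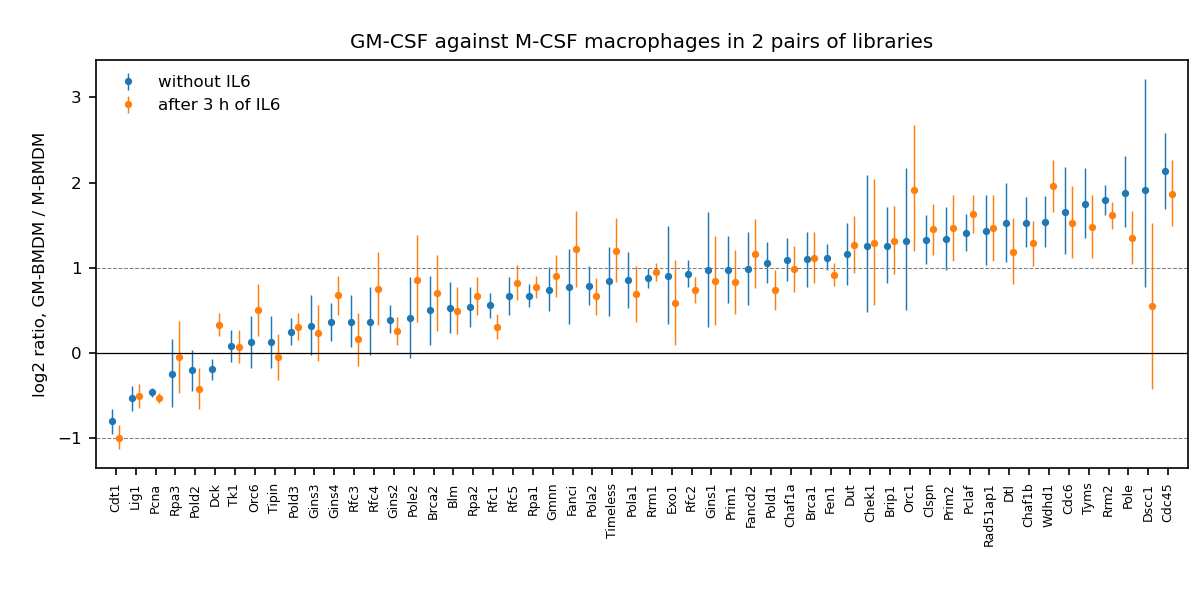
Log2 ratio of GM-BMDM to M-BMDM for each of the 54 members, in the pair without IL6 (blue) and the pair after 3 h of IL6 (orange), ordered by the first. Bars are 95% counting intervals and dashed lines mark 2-fold. Cdt1, Lig1, Pcna, Rpa3 and Pold2 lie below 0 in both pairs, and Cdc45 is the highest in the pair without IL6.

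Each gene had 1 residual degree of freedom in this test, which is how far both macrophage types differ in their 3 h response. The spread was shared across genes, with 65.54 prior degrees of freedom, so the p-values rest mostly on the spread over all genes. The labels do not say that the libraries came from separate cultures. The p-values thus measure only the spread between these libraries, which may be technical. Among the other lists in the same test, 26 of 35 mitosis genes rose and 1 fell, 20 and 11 of 38 further replication genes, 17 and 12 of 58 further repair genes, 10 and 3 of 19 E2F and Rb factors, 9 and 5 of 20 cyclins and their kinases and inhibitors, and 11 and 17 of 38 further nucleotide genes. Mcm7 (2.10) and E2f8 (1.63) had the largest counted ratios of their lists in the pair without IL6. Of 12 macrophage markers, 7 were counted lower in GM-BMDM and 1 higher in that pair, with a median log2 ratio of -1.61. Markers of other cells differed too: mature neutrophil markers (9 genes) summed to 533 CPM in GM-BMDM, against 12.1 in M-BMDM, dendritic markers to 1540 against 237, progenitor markers to 107 against 19.7, with 83.4 from Kit alone, and megakaryocyte markers to 107 against 48.3. These sums came from part of each list. In GM-BMDM, 4 of 9 mature neutrophil, 3 of 9 dendritic, 3 of 8 progenitor and 3 of 7 megakaryocyte markers lay under 1 CPM. Precursor neutrophil markers were at 4.79 against 0.591, and erythroid markers at 6.81 against 11. The part of these cells in the member levels was not tested.

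After 3 h of IL6 no member was counted in either macrophage type, and none passed the test over both types together. In M-BMDM, 0 of 35 members tested were counted higher or lower, with a median over all 54 of 0.11, and 0.101% of 9941 genes were higher and 0.272% lower. In GM-BMDM, 0 of 47 were counted either way, with a median of 0.07, and 0.0585% of 10255 genes were higher and 0.107% lower. In edgeR's quasi-likelihood test over both types, 0 of 54 members passed adjustment in either direction, while 0.161% of all genes rose and 0.545% fell. At an unadjusted p under 0.05 there were 4 members, and 8.55% of all genes. The DESeq2 Wald test also called 0. Pole had the lowest p of the members (0.47, standard error 0.172, adjusted p = 0.302), with log2 ratios of 0.79 (0.34 to 1.25) in M-BMDM and 0.26 (0.01 to 0.51) in GM-BMDM. Lig1 was next (0.25, 0.0941, adjusted p = 0.320), then Rpa1 (0.20) and Rrm1 (0.18). With 1 library per group, differences under 2-fold in single genes were often within counting error: the interval held 1 for 43 members in M-BMDM and for 42 in GM-BMDM. It excluded 1 for 9 members higher and 2 lower in M-BMDM, and for 10 higher and 2 lower in GM-BMDM. How many of all genes had such intervals was not counted, so these interval counts have no background.

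Some member counts may include reads of neighbours. Exons of 20 members overlap an exon of another gene in GENCODE M21 (GRCm38), on the same strand in Pole2 and Rpa1 and on the opposite strand in 18, among them Orc1 (chromosome 4, 108579423 to 108614833), Pole (chromosome 5, 110286306 to 110337474), Cdc45 (chromosome 16, 18780447 to 18811987) and Fancd2 (chromosome 6, 113531682 to 113597017). Whether counting used strand is not given in the sources used here. In 19 members a value was not whole in at least 1 library. Among the overlapping members, Gins2, Rfc2, Rfc5, Fen1, Chaf1a and Fanci had such values in all 6 libraries. Tyms, which overlaps no other exon, had them in all 6 too. The 3 pseudogenes named after members, of Pcna and Tyms, had at most 4 counts in any library. Dtl (chromosome 1, 191537356 to 191575544), Cdc6 (chromosome 11, 98907801 to 98923940), Rrm2 (chromosome 12, 24708241 to 24714146), Pcna (chromosome 2, 132249162 to 132253314) and Brip1 (chromosome 11, 86058138 to 86201193) overlap no other exon.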

How the data were processed

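Total RNA, extracted with TRIzol and treated with DNase I, was sequenced on an Illumina NovaSeq instrument, per the labels' protocols. The authors deposited 1 table of estimated counts per gene: 23.9% to 27.0% of values above 0 were not whole. Per the submitters' processing notes, HISAT2, StringTie, DESeq2 and GRCm38 were used. Versions, settings and use of strand were not given in the sources used here. Counts were rounded. Of 56278 rows, 742 had no gene name (0.240% to 0.522% of the counts) and were left out.

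Libraries were scaled by the trimmed mean of M-values (edgeR 4.0.16, R 4.3.3) over all 6 libraries. Ratios of 2 libraries came with exact 95% Clopper-Pearson intervals of the conditional binomial, at the thresholds given in the report. The reads carry no molecular identifiers and PCR copies count again, so intervals cover counting error only. The quasi-likelihood test used 4 libraries and genes with a CPM of at least 1 in any of them (coefficient of variation between libraries 6.71%, with 65.54 prior degrees of freedom). BM and the 24 h library, each alone, stayed out of it. Both procedures were tested on simulated data. Standard errors printed with the quasi-likelihood test were computed back from its F statistic. Each is the absolute log2 difference over the square root of F, so it is no separate measure of spread.

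The members, gene lists, roles and motifs were chosen with earlier results of these data known. Values in all 6 libraries are printed for the 2 members of each role with the largest ratio in M-BMDM against BM and the 2 with the largest in GM-BMDM against M-BMDM (of those with 5 CPM or more), and for some others. Those others (Cdt1, Pcna, Lig1) and the ranges of Pold2, Pold3, Dck, Tk1, Gmnn, Gins3, Gins4 and Blm were chosen after their values were seen. Pathway genes are those with the largest counted ratios of their list, with E2f1, Samhd1 and Mki67. Some genes of these lists are not reported here by name. Alternatives were other scalings (DESeq2 1.42.0 size factors, total counts, upper quartile), other limits of CPM and fold, no interval, other filters, all 6 libraries in the test and the DESeq2 Wald test. The comparisons of the 24 h library with BM and with the 3 h library were added after the data were seen. Promoter sequences came from a RefSeq table of GRCm38.p6. For 11 members no promoter was used.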

Additional observations from a re-analysis of the deposited data

Results flagged for a closer look

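Dck, the kinase that salvages deoxycytidine, differed in opposite directions after 3 h of IL6 in the 2 macrophage types. Its log2 ratio was -0.35 (95% counting interval -0.49 to -0.22) in M-BMDM, from 53.6 to 42.0 CPM, and 0.17 (0.05 to 0.30) in GM-BMDM, from 46.9 to 52.9 CPM. The difference between the types was not tested, since each rests on 1 library per arm. No other of the 54 members had both intervals on opposite sides of 1. How often genes outside the members met this rule was not counted, and the intervals cover counting error only.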

How the results depend on the processing

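Each value that compares 2 libraries rests on 1 library per group, so no replicate could be left out. No replicate block could be fitted, since the labels give no replicate numbers and each group has 1 library; the test over 4 libraries pairs them only by IL6 treatment, through its IL6 term. The counts of members lower in M-BMDM and GM-BMDM than in BM, and higher at 24 h than in M-BMDM, stayed within 1.5 times under each alternative run; at 24 h from 47 members (3-fold) to 54 (1.5-fold) were higher. The median of GM-BMDM against BM was -2.47 with total counts. In GM-BMDM against M-BMDM, members counted higher were 29 at 1.5-fold and 5 at 3-fold, and 1 was lower at 1.5-fold. In the pair after 3 h of IL6 these were 33 and 4, and 1 was lower with total counts, with upper-quartile factors and at 1.5-fold. In M-BMDM after 3 h, 1 member was higher at 1.5-fold. For the limits of fold, the change follows from the limit itself; for the scalings, Cdt1 lies at 2-fold. In the test of macrophage type, members that rose ranged from 32 (DESeq2 Wald test) to 44 (all 6 libraries), and those that fell from 3 to 4. The test of 3 h of IL6 called 0 members under each alternative. Depth limits Dscc1, Orc1 and Chek1, which had 8 to 19 counts in M-BMDM.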

Other observations

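Regulators of the step from G1 to S phase did not all follow the replication genes. Ccne1, a cyclin that starts S phase, had 52.8 CPM in BM, 3.39 in M-BMDM, 3.94 after 3 h of IL6 and 41.4 after 24 h. In GM-BMDM it had 16.9 CPM, and 16.3 after 3 h. Its levels in BM and at 24 h were thus above those of the other libraries, as in the members. Ccnd1, a cyclin of G1 induced by growth factors, had 14.3 CPM in BM, 570 in M-BMDM, 603 after 3 h, 300 after 24 h, 19.7 in GM-BMDM and 16.4 after 3 h, and so was high in M-BMDM, where most members were lowest. Cdkn1a, the p21 inhibitor, had 8.91 CPM in BM and 201 to 292 in the 5 cultures, with 266 at 24 h. Its level at 24 h was thus near those of the cultures with few replication transcripts.

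Nucleotide genes outside the members also differed between cultures. Cmpk2, a mitochondrial nucleotide kinase induced by interferon, had 63.4 CPM in BM, 54.7 in M-BMDM, 48.6 after 3 h, 17.7 after 24 h, 7.59 in GM-BMDM and 5.43 after 3 h. Upp1, the uridine phosphorylase, had 3.81, 7.26, 7.19, 0.0831, 50 and 50.8 CPM in that order. Rrm2b, the subunit of ribonucleotide reductase used outside S phase, was highest in BM, with 28.5 CPM, and lowest at 24 h, with 11.9, where Rrm2 stood at 309. The genes of these paragraphs were chosen after their values were seen.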
